A study of Mus musculus with 9 samples.

Results

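The genes described here are the potassium channel genes of the mouse, taken as every protein-coding gene whose symbol begins with Kcn, without the imprinted Kcnq1 and Kcnk9. There are 92 of them among the 48440 genes counted and the 21683 protein-coding genes. They were measured by sequencing polyadenylated RNA from J1 mouse embryonic stem cells in 9 libraries, 3 for each of 3 groups. All cells carry Suz12-AID, a fusion of Suz12 to an auxin-inducible degron, so the untreated controls carry it too. Suz12 belongs to the core of Polycomb repressive complex 2, an enzyme that methylates lysine 27 of histone H3 at repressed genes. Mock cells received no auxin, Auxin cells were kept in 50 µM auxin for 96 h, and Reintroduction cells had auxin washed out for 4.5 h after that treatment. Cells grew on gelatin with serum, LIF and inhibitors of MEK and GSK3. The labels do not say how many clones of the degron line were used, and they do not state that replicates came from separate cultures. The p-values therefore measure the spread between these libraries, which may be technical.

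Potassium channels let potassium leave or enter the cell and so set the resting voltage and end each electrical impulse. Alpha subunits form the pore, and families differ in what opens them: voltage, calcium or sodium ions, G proteins, or little beyond the resting gradient. Auxiliary subunits bind the pore and change its gating, its trafficking to the membrane or its assembly. Many of these genes are best known from neurons and heart muscle, and some from glia, kidney and the inner ear.

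Each library held between 44341283 counts (Reintroduction replicate 2) and 113931419 counts (Mock replicate 1) with both mates of a pair counted. Levels are normalised read counts in CPM, with library sizes scaled by TMM factors. Of all 20838 genes tested, 73.2% were called in Auxin against Mock, where called means an adjusted p under 0.05 in edgeR's quasi-likelihood test. For Reintroduction the share was 50.9% against Auxin and 68.1% against Mock. Markers of naive stem cells summed to between 5151 and 5234 CPM in Mock, between 6619 and 7070 in Auxin and between 5053 and 5161 in Reintroduction. They did not move together: 6 of the 8 were called higher in Auxin than in Mock, and 2, Pou5f1 and Dppa3, were called lower. Of all genes tested, 38.4% were higher and 34.8% lower in that comparison. Pou5f1 had a mean of 844 CPM in Mock, 583 in Auxin and 578 in Reintroduction. Libraries also differed in how level varied with exon length. Per doubling of exon length, log2 CPM changed by between -0.24 and -0.16 in the Mock libraries and by between 0.01 and 0.15 in the others, of which Auxin replicate 2 was lowest.

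Most potassium channel genes were low in these cells. In Mock, 18 of the 92 reached a mean of 1 CPM and 2 reached 10 CPM. In Auxin, 24 reached 1 CPM and 2 reached 10 CPM, and in Reintroduction 23 reached 1 CPM and 6 reached 10 CPM. Their summed level was between 157 and 160 CPM in the Mock libraries, between 167 and 171 in Auxin and between 174 and 175 in Reintroduction. The 3 groups did not overlap in this sum. Abundant genes weigh most in it: Kcnk5 alone had a mean of 56.4 CPM in Mock, 35.8 in Auxin and 43.7 in Reintroduction. The sum was not corrected for the differences between libraries in how level varied with exon length. In these bulk samples, fewer cells that express a gene and less RNA per cell cannot be told apart.

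Per kilobase of exon, Kcnk5 had the highest level of all members in Mock. Kcnk5 (ENSMUSG00000023243.8, mm10 chr14:20140058-20181782) encodes TASK-2, an acid-sensitive background channel. Its level was 16.8 CPM per kb, against 5.33 for Kcnj12, the next. Kcnj12 encodes the inward rectifier Kir2.2. After them came Kcnab3 at 2.62, Kcns3 at 2.33, Kcnh3 at 2.25 and Kcnd1 at 1.86 CPM per kb in Mock. In CPM, Kcnk5 and Kcnj12 were also the only members that reached 10 CPM in Mock, and Kcnd1 lay just under that level.

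**Figure D1:**
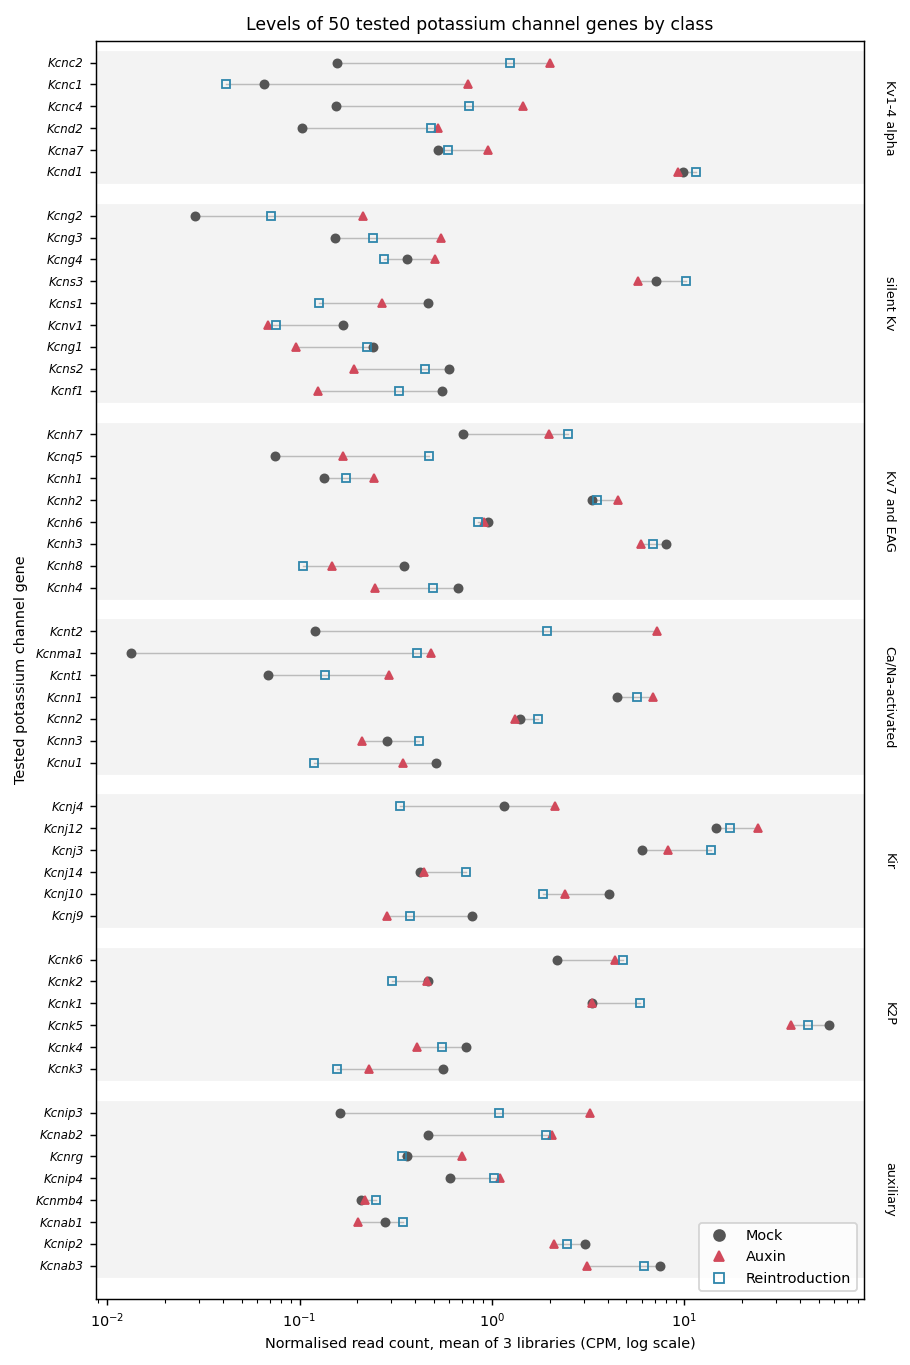
Mean level of 50 tested potassium channel genes in each of the 3 groups (3 libraries each), in CPM on a log scale, grouped by family, with a grey line from the lowest to the highest group. Kcnk5 is the highest gene, and most lie under 1 CPM.

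The filter on low counts kept 54 of the 92 (58.7%), against 68% of all protein-coding genes. The other 38 were not tested, and the highest mean among them in any group was 0.191 CPM. In 6 of them no library held a count. Most genes of the Kv1 family were among those not tested: Kcna4, the neighbours Kcna2, Kcna3 and Kcna10 on chromosome 3, and the neighbours Kcna1, Kcna5 and Kcna6 on chromosome 6. The other untested pore subunits were Kcnb2, Kcnd3, Kcnh5, Kcnq3, Kcnv2, Kcnn4, Kcnj1, Kcnj2, Kcnj5, Kcnj6, Kcnj8, Kcnj11, Kcnj13, Kcnj15, Kcnj16, Kcnk7, Kcnk10, Kcnk12, Kcnk13, Kcnk15, Kcnk16 and Kcnk18. The untested auxiliary genes were all 5 Kcne genes (Kcne1, Kcne1l, Kcne2, Kcne3 and Kcne4), together with Kcnip1, Kcnmb1, Kcnmb2 and Kcnmb3. Kcnj2, Kcnj11 and Kcne1 encode subunits known from heart muscle and pancreatic beta cells.

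In Auxin against Mock, members were called about as often as all genes. A larger share of members than of all genes changed at least 2-fold, a difference that was not tested. The sets are unlike in precision: the median SE of the log2 fold change was 0.26 over the tested members and 0.11 over all genes tested. For Reintroduction these medians were 0.24 and 0.11 against Auxin, and 0.26 and 0.11 against Mock. Shares with at least a 2-fold change are therefore not compared like for like. Of the 54 tested, 39 were called (72.2%, against 73.2% of all genes tested). Of these, 23 were higher in Auxin (42.6%, against 38.4% of all genes) and 16 were lower (29.6%, against 34.8%). At least 2-fold changes were seen in 25 of the 54 tested members, against 31.8% of all genes. These were 15 higher (27.8% of those tested, against 19.8% of all genes) and 10 lower (18.5%, against 12%). The libraries of the 2 groups did not overlap for 40 members (74.3% of all genes). The median log2 fold change was 0.10 over the members and 0.05 over all genes tested. It moved by more than 1.5 times when single libraries were left out, reaching 0.35 without Auxin replicate 3 and 0.31 without Mock replicate 2.

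By family, the calls in Auxin against Mock differed in direction. For all genes tested the shares were 73.2% called, 38.4% higher and 34.8% lower. The share called within a family was between 57.1% (calcium- or sodium-activated channels) and 83.3% (inward rectifiers). Of the voltage-gated alpha subunits of Kv1 to Kv4, 6 of 8 tested were higher and 2 were not called, with a median log2 fold change of 2.26. Of the calcium- or sodium-activated channels, 4 of 7 were higher and 3 were not called, with a median of 0.63. Of the auxiliary subunits, 4 of 8 were higher and 2 lower, with a median of 0.46. Inward rectifiers had 3 of 6 higher and 2 lower, with a median of 0.27. Kv7 and EAG channels had 3 of 10 higher and 4 lower, with a median of 0.17. K2P background channels had 1 of 6 higher and 3 lower, with a median of -0.33. The electrically silent Kv subunits had 2 of 9 higher and 5 lower, with a median of -0.79. These medians describe small lists, and the difference between families was not tested.

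**Figure D2:**
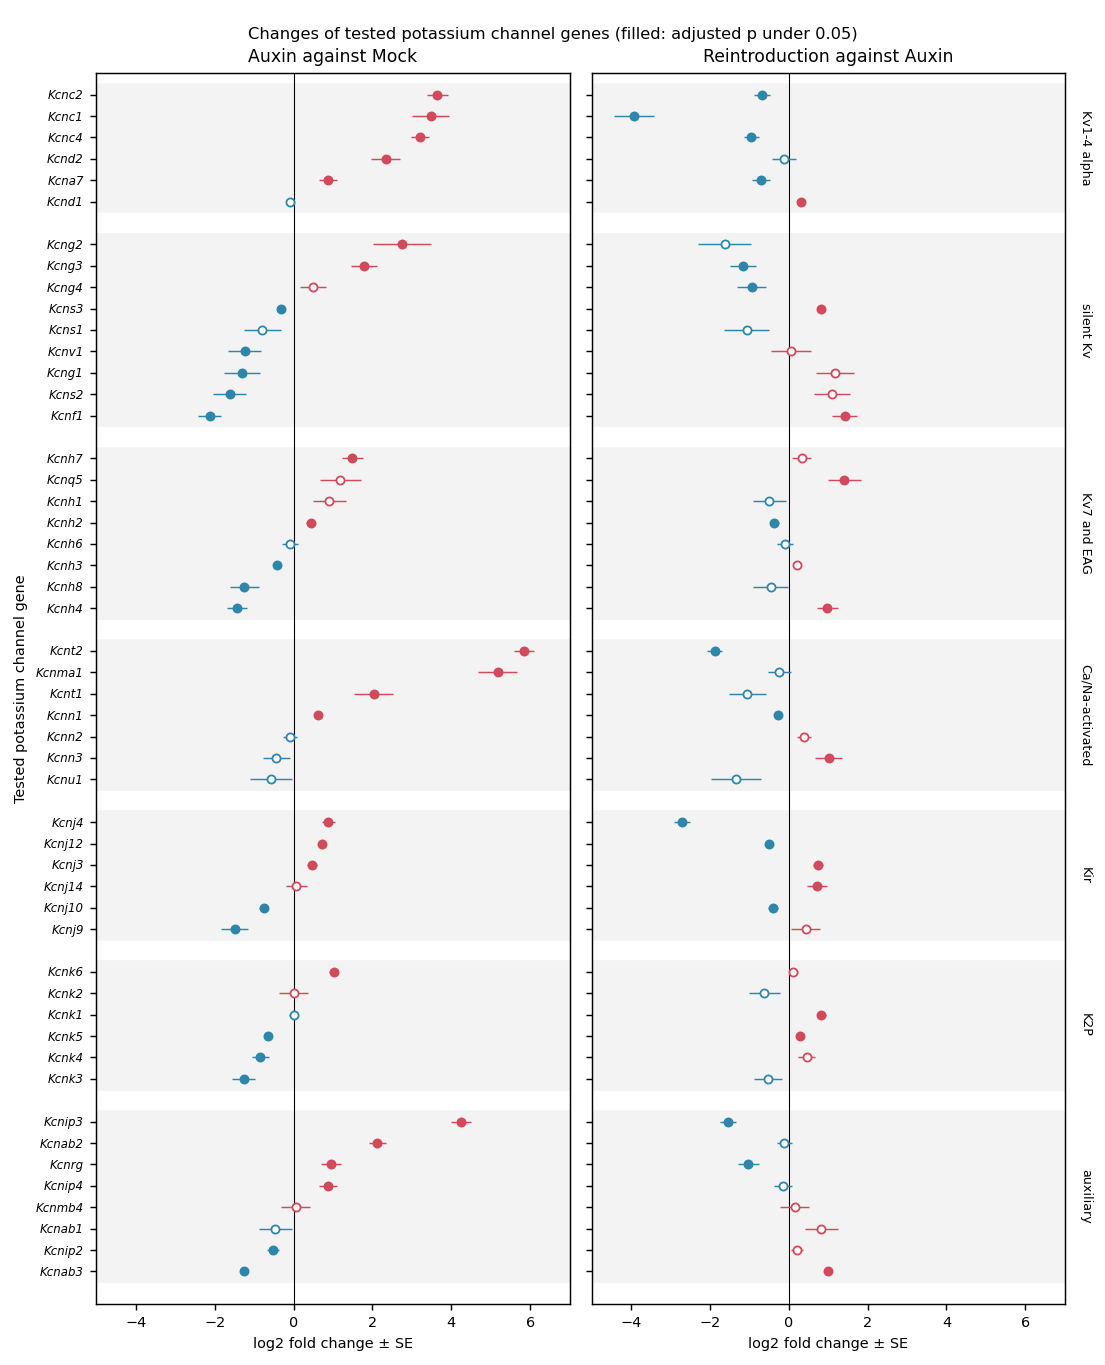
Log2 fold change of 50 tested potassium channel genes in Auxin against Mock (left) and Reintroduction against Auxin (right), grouped by family, with the standard error as a bar, higher values in red, lower in blue and called genes filled. In Auxin against Mock the Kv1 to Kv4 alpha subunits run from -0.09 to 3.65 and the silent subunits from -2.13 to 2.75.

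The reference sequence before the start of 7 genes is shown first. These are the members that changed at least 2-fold in Auxin against Mock, have a single start in the RefSeq table and have no annotated exon in the window. Each is the 250 bases upstream of that start (build GRCm38.p6), written 5′ to 3′ on the strand of the gene, with CG dinucleotides in capitals, since CG-rich promoters are a known feature of Polycomb target genes. Kcnt2, Kcnc1, Kcnd2, Kcng3 and Kcnh7 were higher in Auxin, while Kcnj9 and Kcnf1 were lower. The windows lie at chr1:140245468-140245717 (plus strand) for Kcnt2, chr7:46396218-46396467 (plus strand) for Kcnc1 and chr6:21215096-21215345 (plus strand) for Kcnd2. Those of the others are chr17:83631896-83632145 (minus strand) for Kcng3, chr2:63184288-63184537 (minus strand) for Kcnh7, chr1:172329323-172329572 (minus strand) for Kcnj9 and chr12:17176889-17177138 (minus strand) for Kcnf1.
Kcnt2: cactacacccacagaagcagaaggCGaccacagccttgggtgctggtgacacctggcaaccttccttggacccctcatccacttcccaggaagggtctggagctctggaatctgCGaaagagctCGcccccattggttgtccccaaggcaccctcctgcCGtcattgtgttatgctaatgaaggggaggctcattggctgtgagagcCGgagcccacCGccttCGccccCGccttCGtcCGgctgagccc
Kcnc1: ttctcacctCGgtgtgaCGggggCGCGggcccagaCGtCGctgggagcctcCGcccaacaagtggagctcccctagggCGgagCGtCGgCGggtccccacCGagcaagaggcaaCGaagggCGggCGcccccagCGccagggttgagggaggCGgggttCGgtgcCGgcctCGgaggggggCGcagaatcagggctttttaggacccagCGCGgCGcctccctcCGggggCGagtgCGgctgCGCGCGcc
Kcnd2: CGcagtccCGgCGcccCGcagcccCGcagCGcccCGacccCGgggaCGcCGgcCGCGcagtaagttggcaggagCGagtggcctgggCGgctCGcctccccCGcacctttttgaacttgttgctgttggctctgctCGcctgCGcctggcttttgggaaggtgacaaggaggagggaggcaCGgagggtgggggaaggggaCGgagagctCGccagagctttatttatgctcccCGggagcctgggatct
Kcng3: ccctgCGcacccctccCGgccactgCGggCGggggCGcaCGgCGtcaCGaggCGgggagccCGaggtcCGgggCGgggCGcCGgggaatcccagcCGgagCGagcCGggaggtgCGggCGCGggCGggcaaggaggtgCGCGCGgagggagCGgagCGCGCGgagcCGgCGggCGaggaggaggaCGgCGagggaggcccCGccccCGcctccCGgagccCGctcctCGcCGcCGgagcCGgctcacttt
Kcnh7: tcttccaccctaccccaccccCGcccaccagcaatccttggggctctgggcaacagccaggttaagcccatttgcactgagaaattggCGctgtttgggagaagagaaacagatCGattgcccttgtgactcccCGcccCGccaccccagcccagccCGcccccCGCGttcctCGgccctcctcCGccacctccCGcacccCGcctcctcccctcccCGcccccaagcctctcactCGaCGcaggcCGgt
Kcnj9: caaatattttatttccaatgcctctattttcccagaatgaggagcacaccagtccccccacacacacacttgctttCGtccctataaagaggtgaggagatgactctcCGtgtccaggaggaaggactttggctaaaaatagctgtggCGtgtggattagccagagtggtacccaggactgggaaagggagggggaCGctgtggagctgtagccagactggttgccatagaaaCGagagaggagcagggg
Kcnf1: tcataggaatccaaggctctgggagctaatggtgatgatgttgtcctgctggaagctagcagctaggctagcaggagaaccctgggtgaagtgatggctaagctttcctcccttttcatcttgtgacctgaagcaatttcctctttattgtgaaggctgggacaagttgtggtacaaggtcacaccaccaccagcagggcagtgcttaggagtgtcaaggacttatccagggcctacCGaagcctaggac

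The 7 windows differ widely in CG content. Kcng3 holds 41 CG, Kcnc1 30, Kcnd2 22, Kcnh7 16, Kcnt2 10, Kcnj9 5 and Kcnf1 1. The motif CG reads the same on both strands, so each site was counted once. The RefSeq table matched 69 of the 92 members. Their median was 10 CG per window, against 6 over all 27025 genes in the table, where each gene was represented by its window with the most CG. At least 15 CG were found in 39.1% of the members and in 29.6% of all genes. All members are protein-coding, while the table was not limited to protein-coding genes, so these are unlike sets. Tested members reached 15 CG more often (51.4%) than members not tested (25%). By call in Auxin against Mock the share was 44.4% of the 18 matched higher members and 66.7% of the 9 matched lower members. Among matched members at least 2-fold higher it was 7 of 10, and among those at least 2-fold lower it was 2 of 4. These shares are descriptions of small lists, and Polycomb binding and histone marks were not analysed here.

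The largest rise of all was that of Kcnt2 (ENSMUSG00000052726.15, mm10 chr1:140246158-140612067), which encodes the sodium-activated channel Slick. It measured 0.146, 0.133 and 0.0839 CPM in the Mock libraries, 7.10, 5.60 and 8.92 with auxin and 2.31, 1.65 and 1.86 after washout. Every Auxin library was higher than every Reintroduction library, and every Reintroduction library was higher than every Mock library. In Auxin against Mock the rise was 57.4-fold (log2 fold change 5.84, SE 0.26, adjusted p = 5.29e-09). Reintroduction was lower than Auxin (log2 fold change -1.88, SE 0.18, adjusted p = 8.91e-06) and still higher than Mock (log2 fold change 3.97, SE 0.28, adjusted p = 4.78e-07). Its paralogue Kcnt1, which encodes Slack, was lower in level but was also called higher in Auxin. Kcnt1 measured 0.0679, 0.109 and 0.0280 CPM in the Mock libraries, 0.281, 0.157 and 0.438 with auxin and 0.163, 0.111 and 0.135 after washout. The rise in Auxin was called (log2 fold change 2.03, SE 0.50, adjusted p = 0.00324), and neither comparison with Reintroduction was (adjusted p = 0.0828 against Auxin and 0.136 against Mock).

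Kcnma1 (ENSMUSG00000063142.13, mm10 chr14:23289431-24004859) encodes the pore of the large-conductance calcium-activated BK channel. It held 3 counts in all Mock libraries together, 109 in Auxin and 84 in Reintroduction. Every library after auxin lay above every Mock library, at 0.488, 0.446 and 0.511 CPM in Auxin and 0.414, 0.423 and 0.392 CPM in Reintroduction. The normalised ratio of Auxin to Mock was 41.3, with an exact 95% interval of 13.7 to 203. For Reintroduction to Mock the ratio was 34.9, with an interval of 11.6 to 173. These intervals cover counting error only and treat each count as independent. Both mates of a pair were counted, so the intervals may be too narrow even for counting error. Both differences were called (adjusted p = 2.31e-06 and 7.25e-06). Reintroduction against Auxin was not called (log2 fold change -0.24, SE 0.30, adjusted p = 0.54). Of the beta subunits of BK, Kcnmb1, Kcnmb2 and Kcnmb3 were not tested and Kcnmb4 was not called in any comparison.

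The small-conductance calcium-activated channels changed less. Kcnn1, which encodes SK1, measured 4.67, 4.24 and 4.43 CPM in the Mock libraries, 6.48, 7.86 and 6.31 with auxin and 5.57, 5.68 and 5.83 after washout. Its Auxin libraries were above all others, and its Mock libraries were the lowest. The log2 fold change was 0.63 (SE 0.10, adjusted p = 0.000113) in Auxin against Mock and 0.36 (SE 0.10, adjusted p = 0.00729) in Reintroduction against Mock. Against Auxin, Kcnn1 had a log2 fold change in Reintroduction of -0.27 (SE 0.10, adjusted p = 0.0346), a call lost when Auxin replicate 2 (-0.18) or any single Reintroduction replicate (from -0.30 to -0.27) was left out, and with the DESeq2 Wald test, no filter or the replicate block. Kcnn3, which encodes SK3, was not called in Auxin against Mock (log2 fold change -0.44, adjusted p = 0.281). It was higher in Reintroduction than in Auxin (log2 fold change 1.016, SE 0.34, adjusted p = 0.0292), at 0.402, 0.356 and 0.502 CPM against 0.122, 0.223 and 0.292. That call was lost without Auxin replicate 1 (0.71), Reintroduction replicate 1 (1.05) or Reintroduction replicate 3 (0.85). Kcnn2 was not called in any comparison. Kcnu1, a channel known from sperm, was not called in Auxin against Mock (log2 fold change -0.56, adjusted p = 0.358) and was lower in Reintroduction than in Mock (log2 fold change -1.90, adjusted p = 0.0171). It was listed at 0.0878, 0 and 0.270 CPM in Reintroduction against 0.379, 0.676 and 0.476 in Mock, and the call was lost without Mock replicate 2 (-1.67) or Reintroduction replicate 1 (-1.66).

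Among the voltage-gated alpha subunits, the Kv3 genes Kcnc1, Kcnc2 and Kcnc4 had the largest rises in Auxin. Kv3 channels open and close fast and are known from neurons that fire at high rates. Kcnc2 (ENSMUSG00000035681.6, mm10 chr10:112271123-112466304) measured 0.204, 0.0966 and 0.168 CPM in the Mock libraries, 2.07, 1.60 and 2.35 with auxin and 1.47, 1.09 and 1.16 after washout. No library of 1 group reached into the range of another. On the log2 scale the change was 3.65 (SE 0.26, adjusted p = 2.25e-07) in Auxin against Mock and 2.97 (SE 0.27, adjusted p = 3.12e-06) in Reintroduction against Mock. Between Reintroduction and Auxin it was -0.68 (SE 0.21, adjusted p = 0.0174), which lost its call without Auxin replicate 3 (-0.55), Reintroduction replicate 2 (-0.60) or Reintroduction replicate 3 (-0.64).

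Kcnc1 (ENSMUSG00000058975.7, mm10 chr7:46396497-46438704) differed from Kcnc2 in its level after washout. It measured 0.0679, 0.0724 and 0.0560 CPM in the Mock libraries, 0.756, 0.590 and 0.906 with auxin and 0.100, 0 and 0.0245 after washout. The Reintroduction libraries overlapped the Mock libraries, and all of them lay under the Auxin libraries. Fitted over all libraries, the log2 fold change was 3.47 (SE 0.46, adjusted p = 3.74e-05) in Auxin against Mock and -3.93 (SE 0.51, adjusted p = 7.83e-05) in Reintroduction against Auxin, the largest fall of any member in the latter comparison. Reintroduction against Mock was not called (log2 fold change -0.45, adjusted p = 0.579).

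Kcnc4 (ENSMUSG00000027895.9, mm10 chr3:107438303-107459552) lay between these patterns. It measured 0.165, 0.145 and 0.154 CPM in the Mock libraries, 1.57, 1.40 and 1.36 with auxin and 0.590, 0.846 and 0.833 after washout. The groups did not overlap. Its log2 fold change was 3.21 (SE 0.22, adjusted p = 1.43e-07) in Auxin against Mock. For Reintroduction it was -0.95 (SE 0.18, adjusted p = 0.00129) against Auxin and 2.26 (SE 0.23, adjusted p = 7.31e-06) against Mock.

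Kv4 channels carry the transient A-type current of neurons and heart muscle. Kcnd2, which encodes Kv4.2, measured 0.0679, 0.145 and 0.0979 CPM in the Mock libraries, 0.610, 0.328 and 0.628 with auxin and 0.502, 0.468 and 0.478 after washout. All libraries after auxin lay above the Mock libraries, and the Auxin and Reintroduction libraries overlapped. On the log2 scale the change was 2.34 (SE 0.36, adjusted p = 0.000122) in Auxin against Mock and 2.23 (SE 0.37, adjusted p = 0.000255) in Reintroduction against Mock. Reintroduction against Auxin was not called (log2 fold change -0.11, adjusted p = 0.795). Kcnd1, which encodes Kv4.1, was far more abundant, at 1.86 CPM per kb in Mock against 0.0201 for Kcnd2. It was not called in Auxin against Mock (log2 fold change -0.09, adjusted p = 0.293) and was higher in Reintroduction than in Auxin (log2 fold change 0.32, SE 0.08, adjusted p = 0.00488). Against Mock, Kcnd1 was higher by 0.23 (SE 0.08, adjusted p = 0.0204), a call lost without Mock replicate 2 or 3 (0.17 and 0.21), without Reintroduction replicate 1 or 3 (0.20 and 0.14), and with the exon length trend removed (0.05).

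Kcna7, which encodes Kv1.7, was the only Kv1 gene tested. It measured 0.427, 0.495 and 0.643 CPM in the Mock libraries, 0.903, 0.892 and 1.07 with auxin and 0.427, 0.646 and 0.698 after washout. The Auxin libraries were above all others, and Mock and Reintroduction overlapped. Fitted over all libraries, the log2 fold change was 0.88 (SE 0.23, adjusted p = 0.00509) in Auxin against Mock. After washout the difference from Auxin was -0.70 (SE 0.24, adjusted p = 0.0283), which lost its call without Auxin replicate 3 (-0.61) or Reintroduction replicate 1 (-0.50).

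**Figure D3:**
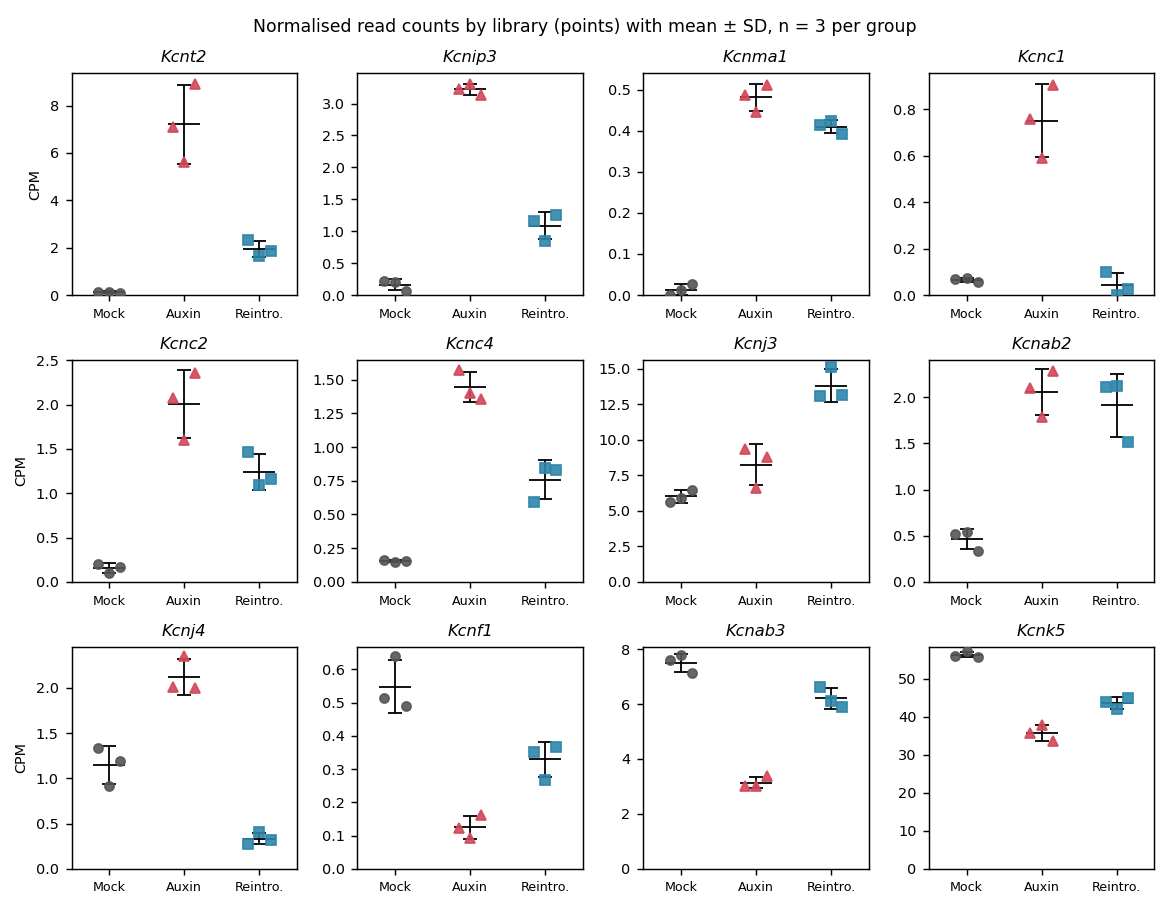
Level of 12 potassium channel genes in each of the 9 libraries, in CPM on a linear axis from 0, with 1 point per library and the mean ± SD of each group in black. Kcnt2, Kcnc2 and Kcnip3 have 3 groups that do not overlap, while the Reintroduction libraries of Kcnc1 overlap those of Mock.

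The electrically silent subunits do not form channels alone and join other Kv alpha subunits, whose gating they change. In Auxin against Mock, 5 were lower and 2 higher. Kcnf1 (ENSMUSG00000051726.6, mm10 chr12:17172100-17176888), which encodes Kv5.1, measured 0.514, 0.640 and 0.490 CPM in the Mock libraries, 0.122, 0.0918 and 0.161 with auxin and 0.351, 0.267 and 0.368 after washout. The 3 groups did not overlap, with Auxin lowest and Mock highest. In Auxin it fell by 2.13 in log2 units (SE 0.29, with adjusted p = 4.95e-05), the largest called fall of any member in that comparison. It was higher in Reintroduction than in Auxin (log2 fold change 1.42, SE 0.31, adjusted p = 0.00302). Its difference between Reintroduction and Mock (log2 fold change -0.71, adjusted p = 0.0307) lost its call without Mock replicate 2 (-0.61), Reintroduction replicate 1 (-0.77) or Reintroduction replicate 2 (-0.61), and with the DESeq2 Wald test, no filter, total counts or the replicate block.

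Kcns2, which encodes Kv9.2, measured 0.563, 0.592 and 0.643 CPM in the Mock libraries, 0.232, 0.197 and 0.146 with auxin and 0.364, 0.780 and 0.196 after washout. Auxin lay under Mock in every library, and Reintroduction spanned both groups. Its log2 fold change was -1.62 (SE 0.42, adjusted p = 0.00475) in Auxin against Mock, and neither comparison with Reintroduction was called (adjusted p = 0.0619 and 0.257). Kcns3, which encodes Kv9.3 and was the most abundant silent subunit in Mock per kilobase (2.33 CPM per kb), measured 7.62, 7.15 and 6.64 CPM in the Mock libraries, 6.22, 6.04 and 4.995 with auxin and 9.92, 10.1 and 10.7 after washout. Every Reintroduction library was above every Mock library, and every Auxin library was below. Its small fall in Auxin was called (log2 fold change -0.31, SE 0.09, adjusted p = 0.0113) but not when libraries were scaled to their total counts without TMM factors (-0.10). Kcns3 was higher in Reintroduction than in Auxin (log2 fold change 0.83, SE 0.09, adjusted p = 2.91e-05) and than in Mock (log2 fold change 0.52, SE 0.09, adjusted p = 0.000475). Kcns1 was not called in Auxin against Mock (log2 fold change -0.79, adjusted p = 0.151) and was lower in Reintroduction than in Mock (log2 fold change -1.86, adjusted p = 0.00971).

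The Kcng genes, which encode the Kv6 subunits, moved in different directions in Auxin. Kcng2 was among the lowest tested members, at 0.0582, 0 and 0.0280 CPM in the Mock libraries, 0.171, 0.341 and 0.131 with auxin and 0.100, 0.0891 and 0.0245 after washout. It was higher in Auxin than in Mock (log2 fold change 2.75, SE 0.73, adjusted p = 0.00519). Kcng3 measured 0.223, 0.109 and 0.126 CPM in the Mock libraries, 0.598, 0.433 and 0.599 with auxin and 0.201, 0.200 and 0.319 after washout and was also higher in Auxin than in Mock (log2 fold change 1.78, SE 0.34, adjusted p = 0.000564). Reintroduction was lower than Auxin for Kcng3 (log2 fold change -1.15, adjusted p = 0.0133), a call lost without Reintroduction replicate 1 (-1.02). Kcng1 was lower in Auxin than in Mock (log2 fold change -1.30, SE 0.45, adjusted p = 0.0222), at 0.0976, 0.131 and 0.0584 CPM against 0.252, 0.193 and 0.280. That call was lost without Mock replicate 1 (-1.28), Mock replicate 3 (-1.21), Auxin replicate 1 (-1.32) or Auxin replicate 3 (-1.07). Kcng4 was not called in Auxin against Mock (log2 fold change 0.49, adjusted p = 0.207). Between Reintroduction and Auxin its call (log2 fold change -0.94, adjusted p = 0.0498) was lost without Auxin replicate 1 (-0.98), Auxin replicate 2 (-0.60), Reintroduction replicate 1 (-0.83) or Reintroduction replicate 3 (-0.81). The same call was lost with DESeq2 size factors, the 2 groups alone or the replicate block.

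Kcnv1, which encodes Kv8.1, was at 0.146, 0.193 and 0.168 CPM in Mock and 0.0976, 0.0787 and 0.0292 in Auxin. Auxin and Mock did not overlap, and its log2 fold change in Auxin was -1.24 (SE 0.43, adjusted p = 0.0216). That call was lost without Auxin replicate 3 (-0.91) or Mock replicate 2 (-1.15), and with the DESeq2 Wald test or no filter. Its call in Reintroduction against Mock (log2 fold change -1.18, adjusted p = 0.0323) was lost when Mock replicate 2 or 3 or any Reintroduction replicate was left out, with values from -1.28 to -1.08. The same call was lost with the DESeq2 Wald test, no filter, total counts or the replicate block.

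Kv7 and EAG channels moved in both directions. Kv7 channels carry the M-current, which damps repeated firing in neurons. Kcnq5, which encodes Kv7.5, measured 0.0776, 0.0483 and 0.0979 CPM in the Mock libraries, 0.171, 0.262 and 0.0730 with auxin and 0.427, 0.624 and 0.355 after washout. Auxin against Mock was not called (log2 fold change 1.19, adjusted p = 0.0556), and Reintroduction was higher than Mock (log2 fold change 2.60, SE 0.46, adjusted p = 0.000456). Reintroduction was also higher than Auxin (log2 fold change 1.41, adjusted p = 0.0153), a call lost without Reintroduction replicate 2 (1.19).

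Of the EAG family, Kcnh3 was the most abundant in Mock per kilobase (2.25 CPM per kb). It was lower in Auxin than in Mock (log2 fold change -0.43, SE 0.09, adjusted p = 0.00139), at 5.87, 6.07 and 6.003 CPM against 8.28, 8.04 and 7.89. Auxin and Mock did not overlap, and Reintroduction replicate 3 lay within the Auxin range. In Reintroduction against Mock its call (log2 fold change -0.23, adjusted p = 0.0444) was lost without any single Mock replicate or without Reintroduction replicate 3, with values from -0.27 to -0.15, and with total counts (-0.10) or trends of exon length and GC content removed (-0.13). The same call was lost with no filter, a filter of 1 CPM in 3 libraries or the replicate block. Kcnh2 encodes hERG, which repolarises the heart. It measured 3.46, 3.28 and 3.20 CPM in the Mock libraries, 4.16, 5.09 and 4.28 with auxin and 3.69, 3.83 and 3.06 after washout, with Auxin above all others. By edgeR the log2 fold change was 0.44 (SE 0.11, adjusted p = 0.00473) in Auxin against Mock, and Reintroduction against Mock was not called (log2 fold change 0.08, adjusted p = 0.56). The lower level in Reintroduction than in Auxin (log2 fold change -0.36, adjusted p = 0.0233) was not called without Auxin replicate 2 (-0.28) or Reintroduction replicate 3 (-0.27).

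Kcnh4 (ENSMUSG00000035355.15, mm10 chr11:100740376-100759942), an ELK channel of the brain, measured 0.728, 0.640 and 0.629 CPM in the Mock libraries, 0.281, 0.171 and 0.292 with auxin and 0.502, 0.579 and 0.404 after washout. Auxin was the lowest group and overlapped neither of the others. The log2 fold change was -1.43 (SE 0.26, adjusted p = 0.00037) in Auxin against Mock and 0.97 (SE 0.27, adjusted p = 0.0108) in Reintroduction against Auxin. Kcnh8, another ELK channel, was lower in Auxin (log2 fold change -1.25, adjusted p = 0.00932) and in Reintroduction (log2 fold change -1.71, adjusted p = 0.00251) than in Mock. Kcnh1 and Kcnh6 were not called in any comparison.

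Kcnh7, which encodes the ERG-type channel Kv11.3, measured 0.602, 0.833 and 0.699 CPM in the Mock libraries, 2.57, 1.23 and 2.15 with auxin and 3.04, 2.32 and 2.11 after washout. All libraries after auxin were above all Mock libraries. On the log2 scale the change was 1.49 (SE 0.27, adjusted p = 0.000403) in Auxin against Mock and 1.82 (SE 0.27, adjusted p = 0.000112) in Reintroduction against Mock, and Reintroduction against Auxin was not called (log2 fold change 0.33, adjusted p = 0.291). Kcnh7 shares exon sequence with Gca, and counting did not use strand. Gca had a mean of 10.4 CPM in Mock, 23.2 in Auxin and 26.2 in Reintroduction, and its part in the result was not tested. With trends of exon length and GC content removed from each library, the log2 fold change of Kcnh7 in Auxin against Mock was 0.62 in place of 1.49, and in Reintroduction against Mock it was 0.73 in place of 1.82, the largest shift of any tested member.

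Inward rectifiers pass potassium more easily into than out of the cell and hold the resting voltage. Kcnj12 (ENSMUSG00000042529.14, mm10 chr11:61022564-61071131) measured 15.97, 14.4 and 13.6 CPM in the Mock libraries, 24.3, 24.9 and 23.2 with auxin and 17.4, 17.7 and 16.5 after washout. The 3 groups did not overlap, and Auxin was highest. Fitted over all libraries, the log2 fold change was 0.72 (SE 0.07, adjusted p = 2.55e-06) in Auxin against Mock and -0.49 (SE 0.07, adjusted p = 0.000147) in Reintroduction against Auxin. Its small excess over Mock after washout (log2 fold change 0.23, adjusted p = 0.0131) was not called without Mock replicate 2 (0.19), Mock replicate 3 (0.15) or Reintroduction replicate 1 (0.20).

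Kcnj4 (ENSMUSG00000044216.6, mm10 chr15:79483718-79505241), which encodes Kir2.3, rose in Auxin and was below Mock after washout. It measured 1.34, 0.917 and 1.19 CPM in the Mock libraries, 2.01, 2.35 and 2.001 with auxin and 0.276, 0.401 and 0.319 after washout. The groups did not overlap, with Reintroduction lowest. By edgeR the log2 fold change was 0.88 (SE 0.17, adjusted p = 0.000651) in Auxin against Mock. With auxin washed out it was -2.71 (SE 0.21, adjusted p = 1.35e-06) against Auxin and -1.83 (SE 0.21, adjusted p = 1.83e-05) against Mock. Kcnj3 (ENSMUSG00000026824.11, mm10 chr2:55435970-55598145), which encodes the G protein-gated subunit Kir3.1, was highest after washout. It measured 5.63, 5.92 and 6.49 CPM in the Mock libraries, 9.34, 6.61 and 8.81 with auxin and 13.1, 15.1 and 13.2 after washout. All Reintroduction libraries were above all Auxin libraries, which were above all Mock libraries. Its log2 fold change was 0.74 (SE 0.12, adjusted p = 0.000423) for Reintroduction against Auxin and 1.197 (SE 0.12, adjusted p = 7.14e-06) against Mock. The smaller rise in Auxin against Mock (log2 fold change 0.46, SE 0.12, adjusted p = 0.00571) lost its call when trends of exon length and GC content were removed (log2 fold change 0.20).

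Kcnj9 and Kcnj10 are neighbours on chromosome 1, with 11.9 kb between them, and both were lower in Auxin. Kcnj9 encodes the G protein-gated subunit Kir3.3, and Kcnj10 encodes Kir4.1, the main potassium channel of glia. Kcnj10 measured 3.73, 4.27 and 4.13 CPM in the Mock libraries, 2.41, 2.10 and 2.69 with auxin and 1.81, 1.92 and 1.78 after washout. No libraries of different groups overlapped, with Mock highest and Reintroduction lowest. The log2 fold change of Kcnj10 was -0.75 (SE 0.11, adjusted p = 0.000103) in Auxin against Mock and -1.14 (SE 0.12, adjusted p = 7.43e-06) in Reintroduction against Mock. Its difference between Reintroduction and Auxin (log2 fold change -0.39, adjusted p = 0.0195) lost its call without Auxin replicate 3 (-0.31), Reintroduction replicate 1 (-0.39) or Reintroduction replicate 3 (-0.38). Kcnj9 was at 0.767, 0.712 and 0.895 CPM in Mock and 0.232, 0.210 and 0.409 in Auxin, and was lower in Auxin (log2 fold change -1.49, SE 0.34, adjusted p = 0.00209). In Reintroduction against Mock, Kcnj9 was lower (log2 fold change -1.06, SE 0.33, adjusted p = 0.0148), a call lost without Reintroduction replicate 3 (-0.77). Kcnj14 was not called in Auxin against Mock (log2 fold change 0.07, adjusted p = 0.819) and was higher in Reintroduction than in Auxin (log2 fold change 0.72, adjusted p = 0.0364) and Mock (log2 fold change 0.79, adjusted p = 0.0169). Its call against Auxin was lost without any single Reintroduction replicate or Auxin replicate 1 or 2 (from 0.51 to 0.75), and its call against Mock without Mock replicate 1 or 3 or Reintroduction replicate 3 (from 0.64 to 0.74). The call against Auxin was also lost with total counts, the 2 groups alone, the replicate block or the exon length trend removed.

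K2P channels carry background potassium current and help to set the resting voltage. Kcnk5, the most abundant member, measured 56.1, 57.3 and 55.9 CPM in the Mock libraries, 35.7, 37.8 and 33.8 with auxin and 43.9, 42.1 and 45.1 after washout. The 3 groups did not overlap, with Auxin lowest and Mock highest. Its log2 fold change was -0.66 (SE 0.06, adjusted p = 8.58e-07) in Auxin against Mock. For Reintroduction it was 0.29 (SE 0.06, adjusted p = 0.00131) against Auxin and -0.37 (SE 0.06, adjusted p = 0.000132) against Mock. Kcnk6, which encodes TWIK-2, was the K2P gene called higher in Auxin. It measured 2.01, 2.37 and 2.14 CPM in the Mock libraries, 4.01, 4.49 and 4.66 with auxin and 4.54, 5.21 and 4.61 after washout. All libraries after auxin were above all Mock libraries, and Auxin and Reintroduction overlapped. The log2 fold change of Kcnk6 was 1.01 (SE 0.11, adjusted p = 5.46e-06) in Auxin against Mock. After washout it was 0.12 (adjusted p = 0.355) against Auxin and 1.14 (SE 0.11, adjusted p = 3.86e-06) against Mock.

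Kcnk1, which encodes TWIK-1, did not pass the test in Auxin against Mock (log2 fold change -0.0010, adjusted p = 0.994) and was higher after washout. It measured 3.83, 2.84 and 3.27 CPM in the Mock libraries, 3.11, 3.38 and 3.48 with auxin and 5.60, 6.39 and 5.71 after washout. Mock and Auxin overlapped, and Reintroduction was above both. The log2 fold change was 0.82 (SE 0.12, adjusted p = 0.000158) against Auxin and 0.82 (SE 0.12, adjusted p = 8.65e-05) against Mock. Kcnk4, which encodes the mechanosensitive channel TRAAK, was lower in Auxin than in Mock (log2 fold change -0.84, SE 0.21, adjusted p = 0.00386), a call lost when trends of exon length and GC content were removed (-0.50). Kcnk3, which encodes TASK-1, measured 0.466, 0.736 and 0.462 CPM in the Mock libraries, 0.195, 0.276 and 0.219 with auxin and 0.138, 0.134 and 0.196 after washout. It was lower than in Mock both in Auxin (log2 fold change -1.26, SE 0.30, adjusted p = 0.00249) and in Reintroduction (log2 fold change -1.79, SE 0.32, adjusted p = 0.000444). Kcnk3 shares exon sequence with Gm9899, which also fell in Auxin, by 1.81 on the log2 scale, and its part was not tested. Kcnk2 was not called in any comparison.

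Among the auxiliary genes the largest rise in Auxin was that of Kcnip3 (ENSMUSG00000079056.12, mm10 chr2:127456498-127522094). Its protein is a calcium sensor, a partner of Kv4 channels that is also known as the transcriptional repressor DREAM. It measured 0.214, 0.205 and 0.0699 CPM in the Mock libraries, 3.23, 3.31 and 3.13 with auxin and 1.17, 0.846 and 1.25 after washout. All groups were apart, with Auxin highest and Mock lowest. On the log2 scale the change was 4.24 (SE 0.26, adjusted p = 5.64e-08) in Auxin against Mock. With auxin washed out it was -1.54 (SE 0.20, adjusted p = 9.11e-05) against Auxin and 2.70 (SE 0.28, adjusted p = 7.4e-06) against Mock. Kcnip4, another Kv4 partner, was higher in Auxin than in Mock (log2 fold change 0.87, SE 0.24, adjusted p = 0.00602), at 1.10, 0.905 and 1.31 CPM against 0.534, 0.628 and 0.657. In Reintroduction against Mock (log2 fold change 0.74, adjusted p = 0.0183) the call was lost without Mock replicate 1 (0.62), Reintroduction replicate 2 (0.59) or Reintroduction replicate 3 (0.62), and with trends of exon length and GC content removed (0.36). Kcnip4 shares exon sequence with 5730480H06Rik, which had a mean of 17.8 CPM in Mock and 15.998 in Auxin, and its part was not tested. Kcnip2, the Kv4 partner of heart muscle, was lower in Auxin (log2 fold change -0.53, SE 0.15, adjusted p = 0.00825), a call lost with scaling to total counts (-0.32). Dpp6, which encodes a further Kv4 partner, was higher in Auxin than in Mock (log2 fold change 0.69, SE 0.14, adjusted p = 0.000703).

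The beta subunits of Kv1 channels, encoded by the Kcnab genes, moved in opposite directions. Kcnab2 measured 0.514, 0.543 and 0.336 CPM in the Mock libraries, 2.10, 1.78 and 2.28 with auxin and 2.11, 2.12 and 1.52 after washout. All libraries after auxin were above all Mock libraries, and Auxin and Reintroduction overlapped. Fitted over all libraries, the log2 fold change was 2.12 (SE 0.21, adjusted p = 2.99e-06) in Auxin against Mock. For Reintroduction it was -0.11 (adjusted p = 0.657) against Auxin and 2.01 (SE 0.21, adjusted p = 8.56e-06) against Mock. Kcnab3, the most abundant auxiliary gene in Mock per kilobase (2.62 CPM per kb), measured 7.59, 7.79 and 7.15 CPM in the Mock libraries, 3.02, 3.005 and 3.37 with auxin and 6.61, 6.13 and 5.88 after washout. Auxin was lowest, and no groups overlapped. By edgeR the log2 fold change was -1.26 (SE 0.09, adjusted p = 1.47e-07) in Auxin against Mock and 0.99 (SE 0.09, adjusted p = 4.32e-06) in Reintroduction against Auxin. The small remaining difference from Mock (log2 fold change -0.27, adjusted p = 0.0124) was not called with scaling to total counts (-0.14) or with trends of exon length and GC content removed (-0.05). Kcnrg, whose product hinders the assembly of Kv1 channels, was higher in Auxin than in Mock (log2 fold change 0.96, SE 0.25, adjusted p = 0.00516) and lower in Reintroduction than in Auxin (log2 fold change -1.02, SE 0.26, adjusted p = 0.00709). Kcnab1 was not called in any comparison.

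Counted over all members, 29 of 54 were called in Reintroduction against Auxin (53.7%, against 50.9% of all genes tested). Of these, 13 were higher and 16 lower, where 25.5% of all genes were called in each direction. At least 2-fold changes were seen in 10 members, 3 higher (4.16% of all genes) and 7 lower (6.82% of all genes), where 11% of all genes changed that far. The groups did not overlap for 31 members (58.2% of all genes). The median log2 fold change was -0.11 over the members and 0.00 over all genes, and it was 0.073 with a filter of 1 CPM in 3 libraries. Of the Kv1 to Kv4 alpha subunits, 2 were higher and 5 lower, with a median of -0.69. The 3 largest falls among members of at least 0.5 CPM were those of Kcnc1, Kcnj4 and Kcnt2, and the 3 largest rises were those of Kcnab3, Kcns3 and Kcnk1. The 3 members at least 2-fold higher, Kcnf1, Kcnq5 and Kcnn3, lay under that level.

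In Reintroduction against Mock, 33 of 54 were called (61.1%, against 68.1% of all genes). These were 20 higher (34.7% of all genes) and 13 lower (33.4% of all genes). At least 2-fold changes were seen in 12 higher members (15% of all genes) and 8 lower members (7.43% of all genes), where 22.4% of all genes changed that far. The groups did not overlap for 37 members (75.2% of all genes). The median log2 fold change was 0.23 over the members and 0.03 over all genes, and it was 0.062 with the exon length trend removed. All 6 tested inward rectifiers were called, 3 higher and 3 lower. Of the Kv1 to Kv4 alpha subunits, 6 were higher and 2 were not called, with a median of 0.84. The 3 comparisons share libraries: Auxin libraries stand in both comparisons named for Auxin, and Mock libraries in both named for Mock, so the values of the comparisons are not independent.

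Genes that work with these channels were read from a list of known partners. Of 13 partner genes, 6 were tested. In Auxin against Mock 4 were higher and 2 lower, where 38.4% of all genes tested were higher and 34.8% lower. Amigo1, which encodes a membrane partner of voltage-gated channels, was higher (log2 fold change 1.23, SE 0.09, adjusted p = 1.65e-07), as was Dpp6. Adam22, whose product sits in Kv1 complexes, rose from 7.47 ± 0.344 to 16.9 ± 3.05 CPM (SD, n = 3, log2 fold change 1.18). Abcc8, the sulfonylurea receptor of Kir6 channels, rose from 0.540 ± 0.170 to 1.08 ± 0.151 CPM. Cntnap2, which anchors Kv1 channels along axons, fell from 3.87 ± 0.237 to 0.522 ± 0.0641 CPM (log2 fold change -2.89, SE 0.15). Dlg4, a scaffold of synapses, fell from 1.496 ± 0.0750 to 0.969 ± 0.0966 CPM. Against Auxin, Reintroduction had 3 lower and 3 not called, where 25.5% of all genes were called in each direction. Against Mock it had 2 higher and 2 lower, where 34.7% of all genes were higher and 33.4% lower.

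Sodium, calcium and HCN channels were set beside the potassium channels as other carriers of electrical signals. Of 23 listed genes, 14 were tested, and in Auxin against Mock 9 were higher and 3 lower, with a median log2 fold change of 0.67. For all genes tested the shares were 38.4% higher and 34.8% lower, with a median of 0.05. Hcn4, a pacemaker channel of the heart, had a mean of 0.00805 CPM in Mock, 0.747 in Auxin and 0.127 in Reintroduction. Cacna1c, a calcium channel of heart and brain, had a mean of 0.297 CPM in Mock and 1.16 in Auxin (log2 fold change 1.97, SE 0.29). Cacna1g, a T-type calcium channel, went the other way, from 0.426 to 0.0522 CPM (log2 fold change -2.97, SE 0.37). Against Auxin, Reintroduction had 1 higher and 5 lower, where 25.5% of all genes were called in each direction. Against Mock it had 7 higher and 2 lower, where 34.7% of all genes were higher and 33.4% lower.

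Markers of cells in which these channels are best known were measured as well. In Auxin against Mock, 38.4% of all genes tested were called higher and 34.8% lower. Of 12 neuron markers 11 were tested, with 4 higher and 3 lower in Auxin against Mock. Their summed level was between 334 and 364 CPM in Mock, between 253 and 288 in Auxin and between 236 and 249 in Reintroduction, and Dcx was at 0 in all libraries. Most of this sum came from Stmn2 (means of 228 CPM in Mock, 158 in Auxin and 142 in Reintroduction) and Tubb3 (98.6, 72.9 and 63.4 CPM), which were lower in Auxin than in Mock, as was Elavl3. Map2, Nefl, Syt1 and Snap25 were the 4 that were higher. Of 10 cardiomyocyte markers 7 were tested, with 2 higher and 4 lower, and their summed level was between 14.99 and 18.02 CPM in Mock, between 12.2 and 12.8 in Auxin and between 12.03 and 12.7 in Reintroduction. Of 8 primitive endoderm markers 7 were tested and all 7 were higher in Auxin. Their summed level was between 6.02 and 7.53 CPM in Mock, between 22.8 and 23.7 in Auxin and between 14.3 and 16.1 in Reintroduction. Of 8 fibroblast markers 3 were tested, with 1 higher and 1 lower. Their summed level was between 17.8 and 20.02 CPM in Mock, between 39.1 and 46.4 in Auxin and between 37.4 and 38.8 in Reintroduction, with Twist2 at 0 throughout. Nearly all of this sum was Thy1 (means of 17.9 CPM in Mock, 41.2 in Auxin and 37.5 in Reintroduction). The other 7 markers were each under 1 CPM in every group. Col1a1 was lower in Auxin (0.152 CPM) than in Mock (0.418 CPM), and Col3a1, Dcn and Lum had no count in Auxin. The part of such cells in the changes of the potassium channel genes was not tested.

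The slope of level on exon length bears on long genes such as these. The tested members had a median exon length of 4219.5 bp, against 2916 bp over all tested genes. Members higher in Auxin than in Mock had a median of 4151 bp, and members lower had 4132 bp. Removing trends of exon length and GC content from each library moved the log2 fold change of the members in Auxin against Mock by a median of 0.16 and at most 0.87, and changed the sign of 3 of them. In Reintroduction against Mock the median shift was 0.16 and the largest 1.09, with 2 changes of sign. In Reintroduction against Auxin the median shift was 0.05 and the largest 0.41, with 1 change of sign. Of the 54 tested members, 16 share exon sequence with another gene, and their counts are less certain. Those called in Auxin against Mock include Kcnt2, Kcng2, Kcnh7, Kcnj3, Kcnj9, Kcnk3, Kcnip4, Kcnab2 and Kcnab3. Among the 38 that do not, 16 were called higher and 13 lower in Auxin against Mock.

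**Figure D4:**
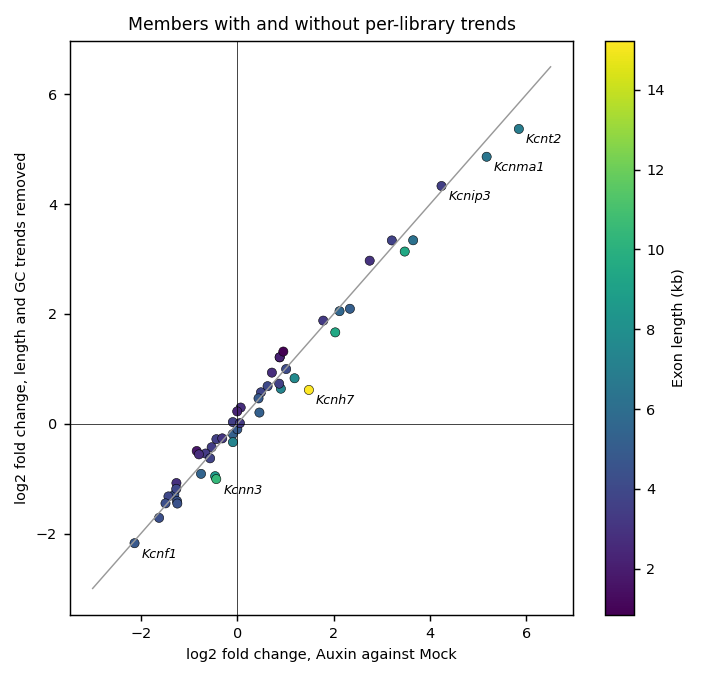
Log2 fold change in Auxin against Mock of 50 tested potassium channel genes as fitted (horizontal axis) and with trends of exon length and GC content removed from each library (vertical axis), coloured by exon length. Points on the grey line have equal values, and the largest shift is 0.87, for Kcnh7.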

How the data were processed

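RNA was sequenced as paired 75-base reads on a NextSeq 500 in 9 libraries, per the labels' protocols. The values deposited are raw counts of reads per gene, made by the authors with featureCounts 2.0.6 over exons of the mm10 build, per the file headers. Bowtie2 2.5.3 is named in the submitters' processing notes. Mates were counted singly and strand was not used, per the file headers, so antisense and overlapping genes cannot be told apart. Symbols came from a table that named 48058 of the 48440 genes.

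Genes were kept by edgeR's filterByExpr (20838 genes). All 9 libraries entered 1 edgeR 4.0.16 quasi-likelihood fit (R 4.3.3) with TMM factors and group as the only term. Tests were two-sided, and p-values were adjusted by Benjamini-Hochberg over all genes tested. Standard errors come from the F statistic, and the common biological coefficient of variation was 9.15%. Groups with 3 counts or fewer were compared as ratios of counts with exact 95% intervals, which treat each count as independent. Levels per kilobase are CPM over exon length. Upstream windows are RefSeq's (GRCm38.p6), matched by symbol. Each window was taken as the one with most CG where a gene has several starts. The fit was tested on simulated data in which far fewer genes changed than were called here, so its rates may not carry over. There it recovered a smaller share of 2-fold changes among the members than among other genes. It also made somewhat more false calls than the threshold allows. A member that was not called is not shown to be unchanged.

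The members and lists were chosen with earlier results of these data known. Genes were named by family: per comparison up to 4 called members with the largest change and at least 1 CPM in the higher group, the highest per kilobase in Mock, and the 3 largest rises and falls at 0.5 CPM or more. The other tested members are named with a value or as not called, except that some members are counted but not reported singly here. Alternatives were DESeq2 size factors, total counts, no filter, a filter of 1 CPM in 3 libraries, the DESeq2 1.42.0 Wald test, the 2 groups alone, a replicate block, removal of length or length and GC trends, halved counts, a 2-fold rule and leaving out each library.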

Additional observations from a re-analysis of the deposited data

How the results depend on the processing

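No called member changed direction under any alternative in which it was tested. Leaving aside the 2-fold rule, 33 of 39 members called in Auxin against Mock kept the call under each alternative that tested them, and 18 of these 33 were tested under all. In Reintroduction against Auxin 17 of 29 kept it, 13 of them tested under all, and in Reintroduction against Mock 23 of 33, 17 of them tested under all. The counts that follow are listed in the order Auxin against Mock, Reintroduction against Auxin and Reintroduction against Mock. When at least a 2-fold change was also required, 25, 10 and 20 members were called, against 31.8%, 11% and 22.4% of all genes tested. With a filter of 1 CPM in 3 or more libraries, 25 members were tested and 21, 18 and 21 were called. Over all genes, 12702, 9694 and 12248 were called with that filter, against 15257, 10613 and 14191 in the main fit. The share of all genes called with that filter is not given here. The median log2 fold change of the tested members in Auxin against Mock, 0.10, was 0.31 with total counts without TMM factors, 0.18 with no filter, 0.53 with the filter of 1 CPM, 0.20 with the exon length trend removed and 0.21 with length and GC trends removed, and between 0.17 and 0.35 when 1 library was left out. In Reintroduction against Auxin, -0.11, it was 0.073 with the filter of 1 CPM and between -0.21 and -0.11 when 1 library was left out. In Reintroduction against Mock, 0.23, it was 0.36 with total counts, 0.022 with no filter, 0.52 with the filter of 1 CPM, 0.062 with the length trend removed and between 0.15 and 0.18 when 1 library was left out, lowest without Mock replicate 3. The filters, the 2 groups alone, halved counts and most fits without 1 library test fewer or more members than the main fit. The causes of the shifts were not tested. Total counts also moved the median of all genes, from 0.05 to 0.26 in Auxin against Mock and from 0.03 to 0.16 in Reintroduction against Mock.

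Members not called in a comparison changed sign in some alternatives. In Auxin against Mock these included Kcnd1 (-0.09, SE 0.08, and 0.12 with total counts), Kcnj14 (from -0.16 to 0.26 without 1 library) and Kcnk1 (-0.001, SE 0.12). Kcnk1 was at 0.21 with total counts, 0.070 with the filter of 1 CPM, 0.033 with the 2 groups alone, 0.19 with the length trend removed, 0.22 with length and GC trends removed, 0.028 with halved counts and between -0.12 and 0.11 without 1 library. The shifts of Kcnd1 and, with total counts or with trends removed, of Kcnk1 were larger than their standard errors. In Reintroduction against Auxin those that changed sign included Kcnab2 (from -0.22 to 0.030 without 1 library), Kcnd2 (from -0.37 to 0.040 without 1 library) and Kcnv1 (from 0.06 to -0.11 with length and GC trends removed). Those in Reintroduction against Mock included Kcnh2 (from 0.08 to -0.059), Kcnab1 (from 0.37 to -0.06), Kcnn2 (from 0.30 to -0.05) and Kcnrg (from -0.07 to 0.26), all with the length trend removed.

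Replicate numbers are shared between groups, but the deviations of same-numbered libraries correlated between -0.33 and 0.21, so the numbers were not taken as pairs. With the replicate block, 39, 25 and 30 members were called, and Kcnk1 was at 0.0017 in Auxin against Mock. Of all 20838 genes tested, 14808, 9829 and 13639 were called with the block, in the same order of comparisons. Levels near 0.1 CPM rest on few counts: Kcng1, with a mean of 0.0957 CPM in Auxin, held 8, 10 and 4 counts there. Calls lost without 1 library were of members under 1 CPM and also of members with higher levels, such as Kcnj12, Kcnd1, Kcnh3 and Kcnn1.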
